A study of Homo sapiens with 9 samples.

Results

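Small nucleolar RNA host genes are described here through 8 members, GAS5, SNHG1, SNHG5, SNHG6, SNHG8, SNHG12, SNHG15 and SNHG16, chosen by their gene names among the 33861 genes of the deposited table. The cells were HCT116, an established human colorectal carcinoma line, and all groups used this 1 line. The 9 libraries were made from RNA depleted of ribosomal RNA and formed 3 groups of 3. Control cells carry the label NC, and how long they were cultured is not stated. Activin cells received 100 ng/mL activin A, a ligand of the TGF-β family, for 5 days. Activin + HGF cells received the same treatment and then 20 ng/mL hepatocyte growth factor (HGF), the ligand of the MET receptor, for another 5 days. The activin + HGF group therefore differed from the activin group in HGF and in 5 more days of culture, which cannot be told apart. Nothing in the labels says that the replicates were separate cultures, so p-values measure only the spread among these libraries, which may be technical.

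A small nucleolar RNA (snoRNA) guides the chemical modification or the processing of ribosomal RNA. C/D snoRNAs guide 2′-O-methylation with the methyltransferase fibrillarin, and H/ACA snoRNAs guide pseudouridylation with dyskerin. In human cells nearly all of them are cut out of introns of longer host transcripts. The 8 members are noncoding hosts, whose introns hold the conserved snoRNA while the spliced exons encode no long protein. Several noncoding hosts begin with a terminal oligopyrimidine (TOP) tract, a C followed by further pyrimidines, as messenger RNAs of ribosomal proteins do. Spliced RNAs of this kind can be engaged by ribosomes and degraded by nonsense-mediated decay (NMD), and GAS5 was named for its rise in growth-arrested cells.

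The 5′ ends are shown first, because the TOP start is a sequence feature that most members share and that the choice by name did not use. A TOP start was counted where an annotated transcript began with C and at least 4 pyrimidines directly after it. In the GENCODE 29 transcripts (GRCh38), 20 of the 122 transcripts of the 8 members (16.4%) had one, against 2.41% of all 206694 annotated transcripts. By gene, 7 of the 8 members had at least 1 such transcript, all except SNHG15, against 13.4% of the 20639 tested genes with an annotated transcript. Genes with many annotated transcripts have more chances to hold one. The first 30 bases of 1 annotated transcript with a TOP start are printed for each of 6 members, 5′ to 3′ with the leading pyrimidine tract in capitals. They lie at chr1:173867960-173867989 (minus strand, GAS5), chr11:62855450-62855479 (minus strand, SNHG1), chr6:85678704-85678733 (minus strand, SNHG5), chr4:118278758-118278787 (plus strand, SNHG8), chr1:28581844-28581873 (minus strand, SNHG12) and chr17:76557769-76557798 (plus strand, SNHG16), all in the first exon.
GAS5: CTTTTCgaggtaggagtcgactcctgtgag
SNHG1: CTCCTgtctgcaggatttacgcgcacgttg
SNHG5: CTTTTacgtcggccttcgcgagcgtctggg
SNHG8: CTTTCacattcgggaagcgtcgggattagg
SNHG12: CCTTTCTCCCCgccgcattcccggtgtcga
SNHG16: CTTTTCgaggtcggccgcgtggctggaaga
In GAS5, 6 of the 29 annotated transcripts shared the printed start, and in SNHG5 3 of 23 did. In SNHG12 and SNHG16 the printed start belonged to 2 of 17 and 2 of 8 transcripts. The tracts of SNHG1 and SNHG8 came from 1 of 25 and 1 of 5 transcripts. The printed start of SNHG1 lies inside its locus, whose annotated 5′ edge is at chr11:62855914, and downstream of SNORD25 (chr11:62855564-62855632). That of GAS5 also lies inside its locus, which reaches chr1:173868882.

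The encoded snoRNAs are represented by 1 of each class. SNORD50B, a C/D snoRNA of 70 nt, lies in SNHG5 at chr6:85677589-85677658 on the minus strand, and its box C (TGATGA) and box D (CTGA) are in capitals. SNORA24, an H/ACA snoRNA of 131 nt, lies in SNHG8 at chr4:118279190-118279320 on the plus strand, with its terminal ACA box in capitals. Both are drawn from GENCODE 29 and written with T.
SNORD50B: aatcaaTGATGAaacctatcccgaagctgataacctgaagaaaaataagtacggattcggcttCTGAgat
SNORA24: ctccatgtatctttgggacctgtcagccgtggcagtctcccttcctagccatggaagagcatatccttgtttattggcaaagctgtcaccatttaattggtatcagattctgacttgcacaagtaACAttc
Across the 7 members with a snoRNA row, all except GAS5, a snoRNA lay within the span of an annotated transcript in 256 pairs. In 218 of these pairs of snoRNA and transcript it fell in an intron. The annotation used here held no snoRNA row within GAS5, which does not show that GAS5 holds none.

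The promoter of SNHG5 is shown because this gene had one of the larger increases described below. Promoter windows of 250 bases before to 50 bases after the start came from RefSeq (GRCh38.p14) and were at hand for 6 members, GAS5, SNHG1, SNHG5, SNHG8, SNHG12 and SNHG16. The letters TATATAA, searched on both strands, occurred in 2 of these 6 windows, those of SNHG5 and SNHG12, and in 2.57% of all 35116 windows. The E-box letters CACGTG occurred in 0 of the 6 and in 7.26% of all windows, which says only that these letters are not in the 6 windows. The window of SNHG5 spans chr6:85678684-85678983 on the minus strand, with TATATAA and the TOP tract at the start (base 251) in capitals.
SNHG5 promoter: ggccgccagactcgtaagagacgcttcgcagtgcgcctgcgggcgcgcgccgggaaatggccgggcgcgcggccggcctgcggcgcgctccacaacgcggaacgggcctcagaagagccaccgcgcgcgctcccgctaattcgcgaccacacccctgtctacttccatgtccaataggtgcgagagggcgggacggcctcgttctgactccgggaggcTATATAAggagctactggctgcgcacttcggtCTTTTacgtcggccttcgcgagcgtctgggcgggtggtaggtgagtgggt
In this window TATATAA began 32 bases upstream of the tract.

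The deposited table gives for each gene and library a read count and an FPKM value (fragments scaled by gene length and by library size). Counts summed to between 57453977 and 77016167 per library. For comparisons between groups, counts were expressed as CPM, counts per 1000000 of a library size scaled by the TMM method, which assumes that most genes do not change. All 8 members were among the 20988 genes that passed edgeR's filter on low counts. A gene was said to have passed the test at a Benjamini-Hochberg adjusted p under 0.05 in edgeR's quasi-likelihood test over all these genes. Library activin + HGF 1 stood apart with the lowest scaling factor, 0.783, the others ranging from 0.899 to 1.17, and it held the highest CPM of 7 of the 8 members, so values that rest on it are also given without it. The epithelial genes EPCAM (77.2 to 133 FPKM), KRT8 (79.5 to 180 FPKM), KRT18 (61.3 to 154 FPKM), KRT19 (251 to 438 FPKM) and CDH1 (9.77 to 37.5 FPKM) were present in every library, whereas the intestinal genes CDX1 and VIL1 stayed at or below 0.14 FPKM. Among 5 markers of other cell types, PTPRC, PECAM1 and DCN stayed at or below 0.04 FPKM, ALB ranged from 0.01 to 0.26 FPKM and COL1A1 from 2.22 to 5.8 FPKM. Some of these markers moved with the groups. COL1A1 passed as higher with activin (log2 fold change 1.03, adjusted p = 0.00205) and against control after both steps (0.67, adjusted p = 0.0104), and ALB against control (2.39, adjusted p = 0.0416), the last pair of calls being lost with counts scaled by library totals. CDH1 passed as higher with activin (0.91, adjusted p = 0.0316), EPCAM after HGF (1.02, adjusted p = 0.0067) and against control (0.70, adjusted p = 0.00865), and KRT19 against control (0.74, adjusted p = 0.0275). Their part in the members' values was not tested.

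Most members were higher after the sequential treatment than in control cells, and the steps at which they passed the test varied. GAS5 and SNHG5 rose at both steps, SNHG1 rose with activin, SNHG6 and SNHG8 rose after HGF, and SNHG16 fell with activin and rose after HGF. Whether the members differed from one another at a step was not tested. With activin against control, 3 of 8 members passed as higher (GAS5, SNHG1 and SNHG5) and 1 as lower (SNHG16), where 9.58% of all tested genes passed as higher and 8.41% as lower. After HGF, compared with activin alone, 6 of 8 passed as higher (GAS5, SNHG5, SNHG6, SNHG8, SNHG12 and SNHG16) against 7.41% of all tested genes, and 0 as lower against 5.45%. In activin + HGF against control, 5 of 8 passed as higher (GAS5, SNHG1, SNHG5, SNHG6 and SNHG8) against 16.4% of all tested genes, and 0 as lower against 15% (edgeR). Both counts of 0 lower were also 0 at an unadjusted p under 0.05 and in DESeq2. The median log2 fold change of the 8 members was 0.54, 1.3 and 1.25 in the 3 comparisons, beside 0.02, −0.04 and −0.03 for all tested genes. With counts scaled by library totals, which put the median of all genes at −0.38 after HGF and −0.30 against control, the same members passed in each comparison except SNHG12 after HGF (1.03, adjusted p = 0.0716). Each pair of these comparisons shares a group of libraries, so their values are not independent of each other. In bulk RNA, a change in the share of cells that express a gene and a change in its RNA per cell cannot be told apart.

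When the log2 fold change also had to reach 1 in either direction, 2 members passed with activin (11.4% of all genes), 6 after HGF (8.09%) and 5 in activin + HGF against control (21.5%). The 3 libraries of one group lay wholly above or below those of the other for 5 members with activin (42.2% of all genes), 6 after HGF (32.7%) and 6 in activin + HGF against control (53.8%). With 3 libraries against 3, the exact permutation test of a single gene cannot give a p below 0.1, and this value was reached wherever the libraries did not overlap.

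The members together took 0.0454% to 0.0468% of all counts in control libraries, 0.0796% to 0.1% in activin libraries and 0.138% to 0.205% in activin + HGF libraries. These ranges did not overlap, and the lowest activin + HGF share was that of replicate 2. GAS5 held 101 of the members' 433 CPM in control replicate 1, and 1472 of 2610 CPM in activin + HGF replicate 1. In activin + HGF replicate 2 it held 838 of 1490 CPM. The rise of the sum is therefore in large part that of GAS5.

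**Figure D1:**
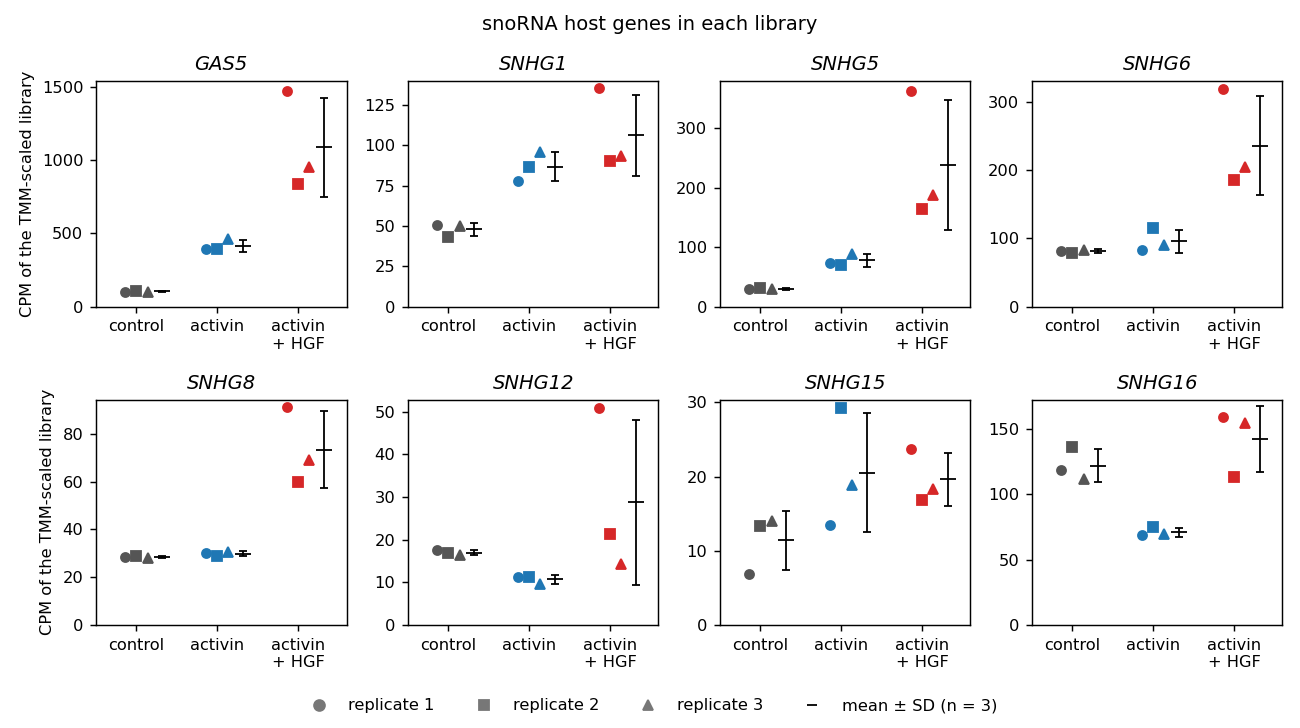
CPM (y axis, linear and starting at 0) of each snoRNA host gene in the 9 libraries by group, with replicates 1, 2 and 3 as circles, squares and triangles and the mean ± SD (n = 3) in black. GAS5 and SNHG5 step up from group to group, SNHG6 and SNHG8 rise in the activin + HGF libraries, SNHG16 dips in the activin libraries, and activin + HGF replicate 1 is the top circle in 7 of the 8 panels when compared with all other libraries.

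GAS5 (ENSG00000234741, chr1:173858559-173868882, minus strand) had the largest increase of the 8 members in activin + HGF against control. Its CPM was 101, 106 and 101 in the control libraries, 391, 390 and 458 with activin, and 1472, 838 and 952 with activin + HGF. The groups did not overlap, and every activin + HGF library lay above every activin library. The log2 fold change was 2.01 ± 0.21 (SE, adjusted p = 0.000263) with activin, 1.40 ± 0.21 (adjusted p = 0.0055) after HGF, and 3.40 ± 0.23 (adjusted p = 1.6e-05) over both steps, a 10.6-fold difference. Without activin + HGF replicate 1, the latter comparisons gave 1.12 and 3.12 and both still passed (adjusted p = 0.00735 and 1.23e-05). Over 15 alternatives the value over both steps ranged from 3.0 to 3.56 and passed in all 15.

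SNHG5 (ENSG00000203875, chr6:85650491-85678754, minus strand), the host of SNORD50B printed above and known as the U50 host gene, followed the same course at lower CPM. It had 28.7, 31.2 and 29.3 CPM in control, 73.5, 70.0 and 89.1 CPM with activin, and 363, 164 and 188 CPM with activin + HGF. Here too no library of one group overlapped another group, and replicate 1 of activin + HGF stood well above its 2 partners. The log2 fold change was 1.38 ± 0.28 (adjusted p = 0.00696) with activin and 1.62 ± 0.28 (adjusted p = 0.00779) after HGF. Over both steps it was 3.0 ± 0.29 (adjusted p = 8.47e-05), or 8.02-fold, and 2.57 (adjusted p = 3.17e-05) without activin + HGF replicate 1. In the 9 libraries the log2 CPM of GAS5 and SNHG5 had a Pearson correlation of 0.985, a description that includes the shared group differences and the shared scaling.

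SNHG1 (ENSG00000255717, chr11:62851984-62855953, minus strand), whose introns hold SNORD22 and a row of further C/D snoRNAs, rose with activin. It had 50.7, 43.5 and 50.1 CPM in control, 77.9, 86.4 and 96.1 CPM with activin, and 135, 90.1 and 93.4 CPM with activin + HGF. Activin libraries all exceeded control libraries, whereas the activin and activin + HGF libraries overlapped. The log2 fold change was 0.85 ± 0.19 (adjusted p = 0.0127) with activin and 1.15 ± 0.19 (adjusted p = 0.00177) in activin + HGF against control. After HGF it was 0.29 with a 95% interval of −0.08 to 0.67 (adjusted p = 0.339), and with counts scaled by library totals it turned to −0.07.

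SNHG6 (ENSG00000245910, chr8:66921684-66926398, minus strand), which holds SNORD87, and SNHG8 (ENSG00000269893, chr4:118278709-118285316, plus strand), which holds SNORA24, were alike in that the activin step did not pass and the HGF step did. Of the 5 annotated transcripts of SNHG6, 3 had a TOP start. SNHG6 had 81.9, 78.3 and 83.5 CPM in control, 82.5, 115 and 90.7 CPM with activin, and 319, 186 and 204 CPM with activin + HGF. SNHG8 had 28.4, 29 and 28.2 CPM in control, 30.1, 28.8 and 30.7 CPM with activin, and 91.2, 59.9 and 69.1 CPM with activin + HGF. For both genes the activin libraries overlapped the control libraries in CPM, whereas in FPKM the activin libraries of SNHG6 (66.6 to 78.8) all lay above its control libraries (55.1 to 60.4), and all 3 activin + HGF libraries lay above the other 6. With activin the log2 fold change of SNHG6 was 0.24 (95% interval −0.19 to 0.67, adjusted p = 0.514) and that of SNHG8 was 0.06 (95% interval −0.29 to 0.42, adjusted p = 0.857). After HGF it was 1.3 for each, with SE 0.22 for SNHG6 (adjusted p = 0.00794) and 0.18 for SNHG8 (adjusted p = 0.00479). Without activin + HGF replicate 1 these values were 1.03 (adjusted p = 0.0135) and 1.12 (adjusted p = 0.00745). Against control, SNHG6 was 1.54 ± 0.23 (adjusted p = 0.000785) and SNHG8 1.36 ± 0.18 (adjusted p = 0.000503) higher on the log2 scale. Whether the activin step differs between these genes and GAS5 or SNHG5 was not tested.

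SNHG16 (ENSG00000163597, chr17:76557764-76565348, plus strand), the host of SNORD1A, SNORD1B and SNORD1C, moved in opposite directions at the 2 steps. It had 118, 136 and 112 CPM in control, 68.6, 75.1 and 69.4 CPM with activin, and 159, 113 and 155 CPM with activin + HGF. The activin libraries lay below all others, and the activin + HGF libraries overlapped the control libraries. SNHG16 fell by 0.78 ± 0.17 on the log2 scale with activin (adjusted p = 0.0119) and then rose by 1.00 ± 0.18 after HGF (adjusted p = 0.00839). The fall no longer passed without control replicate 2 (adjusted p = 0.0702) or without activin replicate 1 (adjusted p = 0.0512), and the rise no longer passed without activin replicate 1 (adjusted p = 0.0509). In activin + HGF against control the log2 fold change was 0.22 (95% interval −0.12 to 0.56, adjusted p = 0.365), and it turned to −0.06 with scaling by library totals.

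SNHG12 (ENSG00000197989, chr1:28578538-28581878, minus strand), which holds SNORD99 and 4 annotated rows of H/ACA snoRNAs, had the widest spread after HGF. It had 17.6, 16.8 and 16.4 CPM in control, 11.3, 11.2 and 9.57 CPM with activin, and 50.8, 21.3 and 14.3 CPM with activin + HGF. The activin libraries lay below all others, but activin + HGF replicate 3 fell under the control libraries and replicate 1 stood far above. After HGF the log2 fold change was 1.43 ± 0.38 (adjusted p = 0.0369), and it was 0.74 (adjusted p = 0.0626) without activin + HGF replicate 1. This call passed in only 6 of 15 alternatives and was also lost when any 1 of the 3 activin libraries was left out (adjusted p = 0.12, 0.0599 and 0.137). With activin the log2 fold change was −0.67 (95% interval −1.41 to 0.08, adjusted p = 0.268). In activin + HGF against control it was 0.76 (adjusted p = 0.152), which became 0.07 without activin + HGF replicate 1 and 1.08 (adjusted p = 0.0331) without replicate 3.

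SNHG15 (ENSG00000232956, chr7:44983023-44986834, minus strand), the host of SNORA9, passed in none of the 3 comparisons. It had 6.86, 13.3 and 14 CPM in control, 13.4, 29.2 and 18.8 CPM with activin, and 23.7, 16.9 and 18.3 CPM with activin + HGF. Control replicate 1 was the lowest library, and the activin libraries overlapped both other groups. The log2 fold change was 0.85 (95% interval 0.19 to 1.51, adjusted p = 0.111) with activin, −0.07 (−0.72 to 0.59, adjusted p = 0.921) after HGF and 0.78 (0.12 to 1.44, adjusted p = 0.102) in activin + HGF against control. The intervals are for single genes and are not adjusted for the number of genes tested.

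**Figure D2:**
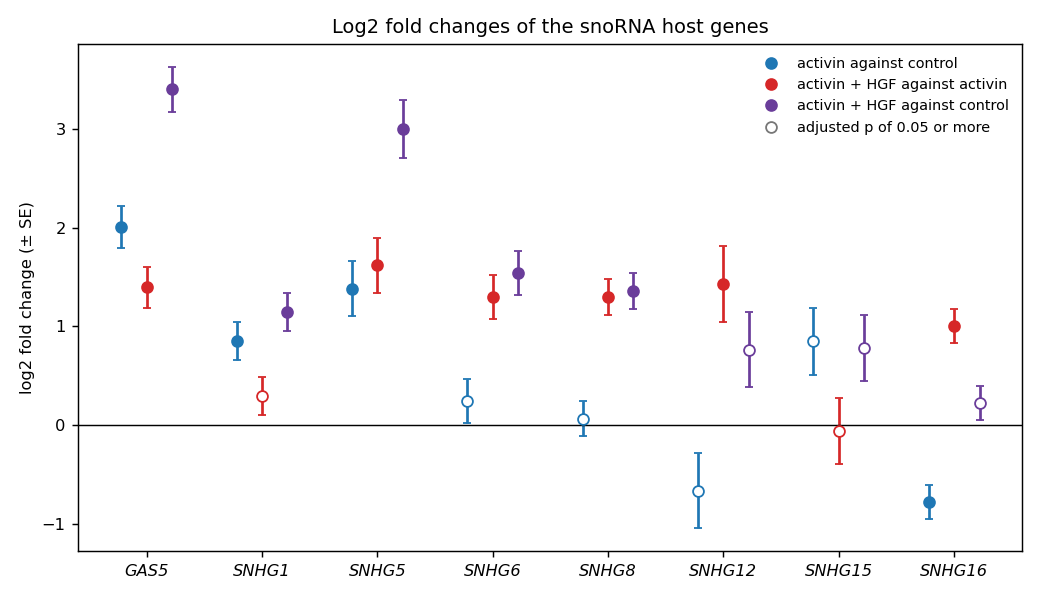
Log2 fold change ± SE (y axis) of each member in the 3 comparisons, filled where the adjusted p was under 0.05 in edgeR's quasi-likelihood test over 20988 genes. GAS5 reaches 3.40 and SNHG5 3.0 over both steps, SNHG16 is the only filled point below 0, at −0.78 with activin, and SNHG15 has no filled point.

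Levels can be compared between genes only per length, for which FPKM was used. In control cells SNHG6 was highest with 58.5 ± 2.97 FPKM (SD, n = 3), followed by SNHG16 (20.4 ± 1.83) and GAS5 (19.0 ± 0.267), which overlapped, then SNHG1 (10.8 ± 1.12), SNHG8 (3.87 ± 0.067), SNHG12 (3.54 ± 0.199), SNHG15 (2.57 ± 0.863) and SNHG5 (2.09 ± 0.049), the last pair overlapping. With activin, GAS5 (81.3 ± 12.4 FPKM) and SNHG6 (72.5 ± 6.10 FPKM) overlapped at the top, and SNHG12 was lowest at 2.36 ± 0.254 FPKM. In activin + HGF, GAS5 (161 ± 33.7 FPKM) and SNHG6 (136 ± 27.6 FPKM) again overlapped at the top. Below them SNHG16 (19.2 ± 2.71 FPKM), SNHG1 (19.2 ± 2.64 FPKM) and SNHG5 (13.4 ± 4.73 FPKM) overlapped one another. SNHG8 (8.01 ± 0.987 FPKM), SNHG12 (4.72 ± 2.73 FPKM) and SNHG15 (3.59 ± 0.312 FPKM) followed, each overlapping its neighbour. By mean deposited FPKM, GAS5 thus moved from rank 3 to rank 1, and SNHG5 from rank 8 to rank 5. These ranks hold only for the lengths in that FPKM. In mean CPM, which takes no account of length, control cells had 29.7 for SNHG5, 28.5 for SNHG8, 17.0 for SNHG12 and 11.4 for SNHG15. For each member the ratio of count to FPKM followed the library total to within 1.03-fold, so the authors' FPKM carries no TMM scaling.

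**Figure D3:**
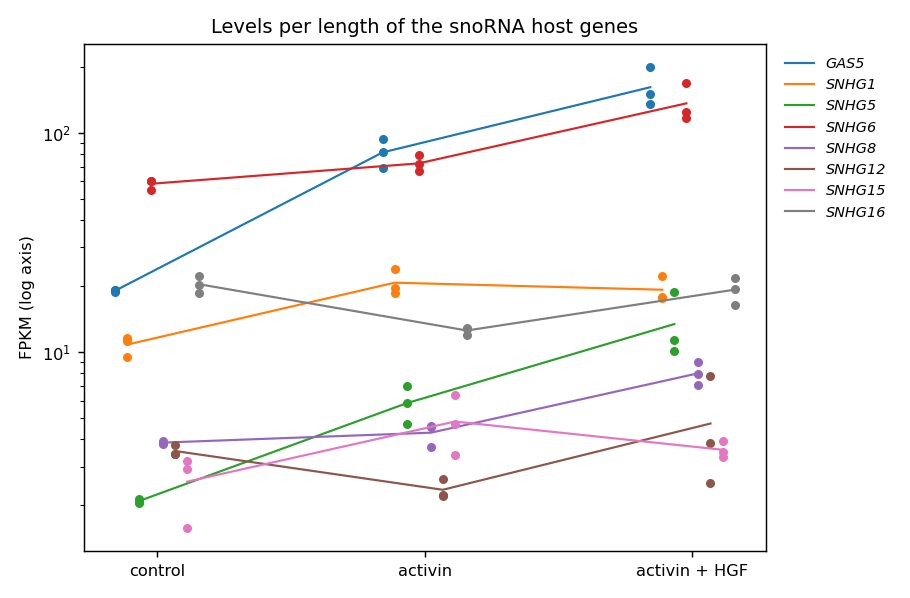
FPKM (log axis) of the 8 members in the 3 libraries of each group, with lines through the group means. GAS5 climbs from 19.0 to 161 FPKM and joins SNHG6, while SNHG15 stays between 1.58 and 6.34 FPKM in the 9 libraries.

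Over the 9 libraries, SNHG6 and SNHG8 had a Pearson correlation of log2 CPM of 0.972, GAS5 and SNHG1 of 0.958, and SNHG12 and SNHG16 of 0.735. SNHG16 had 0.118 with GAS5 and −0.037 with SNHG1. The genes most like the mean of the 8 centred members, among 12074 genes with a mean of at least 1 FPKM, were NPDC1 (0.996), TXNDC12 (0.995), LAPTM4A (0.995), CMC2 (0.993) and TERF2IP (0.992). TXNDC12 encodes an endoplasmic reticulum thioredoxin and TERF2IP the telomere protein RAP1. All these points share their groups and scaling, so the correlations are descriptions.

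Members are short, spliced RNAs whose median annotated transcript length ran from 470 to 1415 nt. Other tested genes with a median length in that range had median log2 fold changes of 0.00 with activin, 0.01 after HGF and 0.00 over both steps, and longer genes had 0.05, −0.15 and −0.11. Rows that the table types as long noncoding RNA had medians of 0.27, −0.43 and −0.19, and after HGF 1.83% of these 3724 rows passed as higher. The part of length or RNA type in the members' values was not tested.

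The snoRNAs inside the members are 69 to 137 nt long and could be followed only in part. The table held 19 snoRNA rows within 7 members, and none within GAS5. Of their 171 values, 98 (57.3%) were exactly 1 count, 9 rows never exceeded 3 counts, and 7 rows passed the filter on low counts. SNORD87, the C/D snoRNA of SNHG6, had 79, 57 and 90 counts in control, 57, 28 and 74 with activin, and 249, 137 and 142 with activin + HGF. Like its host it passed after HGF, with a log2 fold change of 1.99 ± 0.45 (adjusted p = 0.0208), and in activin + HGF against control with 1.43 ± 0.44 (adjusted p = 0.0328). SNORA24, printed above, had 0.616 ± 0.228 CPM in control, 0.556 ± 0.0474 with activin and 1.57 ± 0.817 with activin + HGF, and its change after HGF did not pass (1.5 ± 0.5, adjusted p = 0.0766).

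Of the 7 snoRNA rows within SNHG1, 4 never exceeded 3 counts. Whether a value of exactly 1 count is a read or a floor of the counting is not given in the sources used here, so the fold changes of rows with such values have no interpretable size and are left out. SNORD27 had 75, 64 and 75 counts in control, 1, 17 and 1 with activin, and 404, 69 and 49 with activin + HGF. It passed as higher after HGF (adjusted p = 0.0261), with 2 of the 3 activin libraries at 1 count. SNORD26 was at 1 count in all control libraries and at 491, 89 and 1 counts with activin + HGF, where it passed against control (adjusted p = 0.0155), with libraries of both groups at 1 count. Without activin + HGF replicate 1 none of the tested snoRNA rows passed in either comparison (0 rows in edgeR, beside 4 rows after HGF and 3 against control at an unadjusted p under 0.05, and as many in DESeq2, with all libraries). The same holds after HGF without activin replicate 1 or 3, and against control without any 1 of the control libraries. Reads of a mature snoRNA and of its host's unspliced RNA cannot be told apart in the table.

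Another 19 noncoding snoRNA hosts, listed by name, served as a comparison, of which 17 were tested. Counts of this and the following lists stand beside the shares of all tested genes. These were 9.58% higher and 8.41% lower with activin, 7.41% and 5.45% after HGF, and 16.4% and 15% in activin + HGF against control. No test set the counts of a list against these shares. With activin 2 passed as higher and 2 as lower, their median log2 fold change being −0.02. SNHG32 (2.20 ± 0.17, adjusted p = 4.2e-05) and ZFAS1 (1.94 ± 0.22, adjusted p = 0.000341) rose like GAS5 and SNHG5, while SNHG4 (−1.24 ± 0.18, adjusted p = 0.00118) and SNHG10 (−1.14 ± 0.33, adjusted p = 0.0363) fell. After HGF 8 of 17 passed as higher and 0 as lower (1 lower at an unadjusted p under 0.05 and 1 in DESeq2), with a median of 1.02, with the smallest p in SNHG19 (2.09 ± 0.30, adjusted p = 0.00479), SNHG32 (1.08 ± 0.17, adjusted p = 0.00589) and ZFAS1 (1.38 ± 0.21, adjusted p = 0.0059). In activin + HGF against control 10 passed as higher and 2 as lower, with a median of 1.25.

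ZFAS1, the host of the SNORD12 group, went from 71.9 ± 8.03 CPM in control to 721 ± 214 CPM in activin + HGF (SD, n = 3), and SNHG32, which holds SNORD48 and SNORD52, from 67.2 ± 5.36 to 649 ± 58.9 CPM. These 10.0-fold and 9.65-fold differences are near the 10.6-fold of GAS5, and no test compared them. SNHG29, the host of SNORD49A and SNORD49B, reached 949 ± 97.4 CPM from 390 ± 29.5 CPM (2.43-fold, adjusted p = 0.0007). SNHG4 fell by 1.47 ± 0.18 (adjusted p = 0.000273) and SNHG11 by 0.83 ± 0.25 (adjusted p = 0.0312) on the log2 scale. Without activin + HGF replicate 1, 7 of the hosts passed as higher after HGF and 7 against control, and these were the same 7. The 8 higher after HGF became 5 when only the 2 groups compared were fitted, 4 without activin replicate 1 and 5 without activin replicate 3, and the 10 higher than control became 6 without control replicate 1 or control replicate 2. The 2 lower with activin became 1 with library totals, with limma, without the filter and without any 1 library except activin replicate 3. The 2 lower than control became 1 without the filter and without any 1 library except activin + HGF replicate 2. The 0 lower after HGF became 1 with RLE scaling, with library totals and with limma on filtered FPKM.

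**Figure D4:**
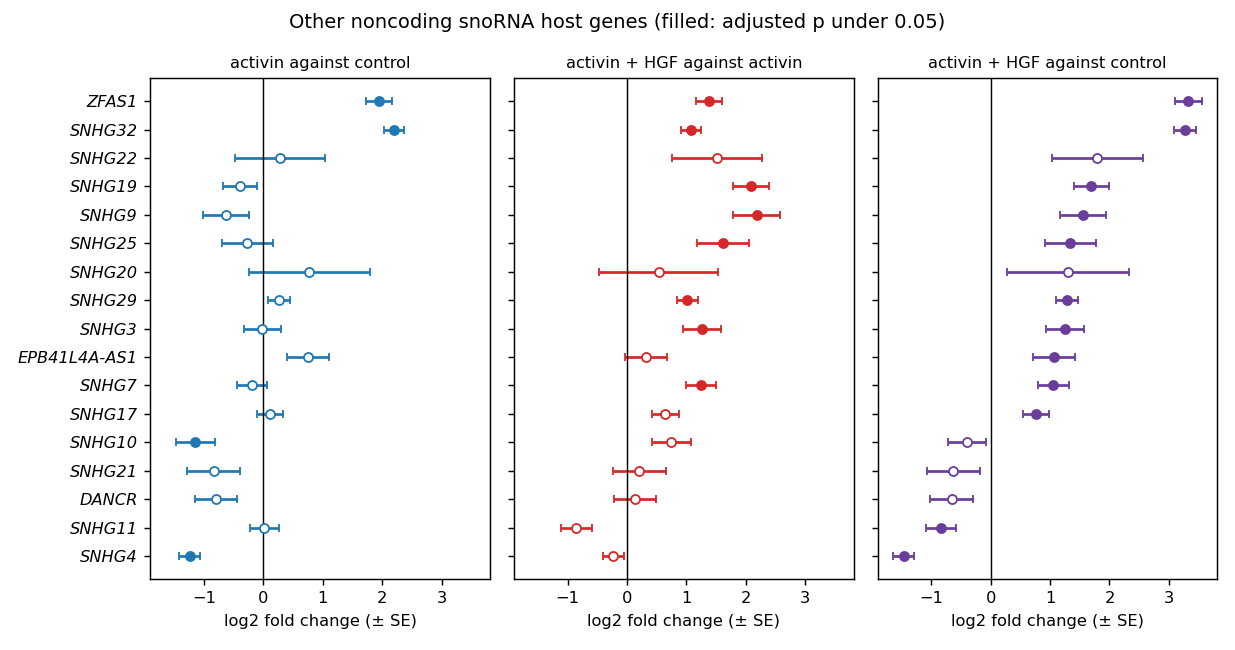
Log2 fold change ± SE (x axis) of the 17 other noncoding snoRNA host genes that were tested (rows), in the 3 comparisons, filled where the adjusted p was under 0.05. ZFAS1 and SNHG32 lie beyond 3 over both steps, SNHG4 lies at −1.47, and the middle panel has filled points on the higher side only.

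Protein-coding snoRNA hosts, 23 genes such as those of ribosomal proteins and translation factors, went lower with activin and higher after HGF. With activin 6 passed as lower and 0 as higher (0 higher also at an unadjusted p under 0.05 and in DESeq2), with NOP56 (−1.41 ± 0.16, adjusted p = 0.000388), nucleolin NCL (−0.90 ± 0.14, adjusted p = 0.00228) and the chaperone HSPA8 (−2.88 ± 0.53, adjusted p = 0.00476) at the smallest p. After HGF 10 passed as higher and 0 as lower (1 lower at an unadjusted p under 0.05, 0 in DESeq2), among them HSPA8 (4.53 ± 0.57, adjusted p = 0.00322, and 3.42 without activin + HGF replicate 1), RPS12 (1.24 ± 0.20, adjusted p = 0.00623) and RPL17 (1.31 ± 0.21, adjusted p = 0.00689). HSPA8 had very unequal libraries with activin + HGF, at 9784, 2540 and 1834 CPM, beside 1494 to 1537 CPM in control and 170 to 242 CPM with activin. Against control it passed (1.64, adjusted p = 0.0318) but not without activin + HGF replicate 1 (0.54, adjusted p = 0.0694) or without any 1 of the control libraries (adjusted p = 0.0845 to 0.0925). Against control 10 passed as higher, among them RPS12 (1.57) and TPT1 (1.45), and 3 as lower, NOP56 (−1.77), NCL (−0.61) and WDR43 (−0.86). The list's median log2 fold changes were −0.30, 0.70 and 0.53, the same signs as those of SNHG12 and SNHG16. Neither of these members passed against control, and SNHG12 did not pass with activin. The counts rested on single libraries and on the fit, since the 10 higher after HGF became 3 when only the 2 groups compared were fitted, 3 without activin replicate 1, 4 without activin replicate 3 and 16 without activin replicate 2. The 6 lower with activin became 3 without activin replicate 1, control replicate 1 or control replicate 2, and the 10 higher than control became 6 without control replicate 1. With limma on filtered FPKM, the 0 higher with activin became 1 on log2(FPKM + 0.1) and 2 on log2(FPKM + 1). The 0 lower after HGF became 1 with library totals, with limma on FPKM and without activin replicate 2.

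Among the genes for proteins that bind snoRNAs, those that passed were mostly lower. Of the 8 core proteins of the 2 snoRNP classes, 3 passed as lower with activin (NOP56, NOP58 and NHP2), 1 passed as higher after HGF (NHP2) and 3 passed as lower than control after both steps (NOP56, NOP58 and DKC1). NOP56, a scaffold of C/D snoRNPs and itself a snoRNA host, went from 262 ± 6.08 CPM in control to 98.5 ± 7.88 with activin and 76.9 ± 11.5 with activin + HGF. NHP2, a subunit of H/ACA snoRNPs, fell by 1.63 ± 0.20 on the log2 scale (adjusted p = 0.000491) and then rose by 1.37 ± 0.20 (adjusted p = 0.00488). At an unadjusted p under 0.05, 4 core genes were higher and 1 lower after HGF, and without activin replicate 2 the number that passed as higher was 5. Among 10 assembly factors, 4 passed as lower with activin, with the ATPases RUVBL1 (−1.08 ± 0.22, adjusted p = 0.00797) and RUVBL2 (−1.28 ± 0.29, adjusted p = 0.0119) and the dyskerin chaperone SHQ1 (−0.93 ± 0.19, adjusted p = 0.00837) at the smallest p. After HGF 0 assembly factors passed in edgeR and in DESeq2 (1 at an unadjusted p under 0.05, and 1 as lower with limma on filtered FPKM), and 5 were lower than control after both steps. The counts of lower assembly factors ranged down to 2 with activin (without activin replicate 1) and to 3 over both steps (without activin + HGF replicate 2, control replicate 1 or control replicate 3). With counts scaled by library totals, and with limma on FPKM, 8 of 10 were lower than control, and with library totals the list's median after HGF turned from 0.15 to −0.21.

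Spliced snoRNA hosts are known targets of NMD, and 10 NMD factors were listed for that reason. Their counts, out of only 10 genes, stand beside the shares of all tested genes. These were 8.41% lower with activin, 7.41% higher after HGF, and 15% lower and 16.4% higher against control. No test set the counts against these shares. The counts are given as values of single genes and not as a result about the list. With activin 2 passed as lower, UPF3B (−1.35 ± 0.31, adjusted p = 0.014) and UPF2 (−1.19 ± 0.37, adjusted p = 0.0494), adaptors of the helicase UPF1. UPF1 itself passed as higher after HGF (0.79 ± 0.20, adjusted p = 0.028) and against control (0.62 ± 0.20, adjusted p = 0.0351). In activin + HGF against control 3 passed as lower, SMG5 (−0.94 ± 0.18, adjusted p = 0.003), the endonuclease SMG6 (−0.67 ± 0.17, adjusted p = 0.0144) and UPF2 (−1.36 ± 0.37, adjusted p = 0.0194). With 1 library left out, the lower counts ranged from 0 to 4 with activin and from 1 to 5 against control. The 0 calls of lower NMD factors with activin came without control replicate 1 and without control replicate 3, and UPF1 no longer passed against control when any 1 library of these groups was left out. After HGF it no longer passed without activin replicate 1, activin replicate 3, activin + HGF replicate 1 or activin + HGF replicate 2. With library totals 7 of the 10 passed as lower than control, and UPF1 passed as higher in neither comparison.

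Of 10 regulators of TOP messenger RNAs, 1 passed as lower with activin, LARP4 (−1.70 ± 0.32, adjusted p = 0.00538), a poly(A)-associated protein. This count is near the 8.41% of all tested genes that passed as lower. Against control the shares of all tested genes were 16.4% higher and 15% lower, so the counts below are values of single genes and not a result about the list. After HGF 0 passed in edgeR (5 at an unadjusted p under 0.05 and 1 in DESeq2). Against control 1 was higher, EIF4EBP1 (1.02 ± 0.22, adjusted p = 0.00594), the translation repressor controlled by mTOR, and 3 were lower, LARP4 (−2.03 ± 0.32, adjusted p = 0.00127), the kinase MTOR (−1.01 ± 0.21, adjusted p = 0.00565) and its substrate RPS6KB1 (−1.22 ± 0.32, adjusted p = 0.0149). LARP1, the TOP-binding repressor, did not pass with activin (−0.10, adjusted p = 0.856). Of 12 genes for lariat debranching, exonucleases and the exosome, which release and trim intronic snoRNAs, 5 passed as lower with activin, among them XRN2 (−1.07 ± 0.17, adjusted p = 0.00243) and EXOSC10 (−1.12 ± 0.23, adjusted p = 0.00803). One of them passed as lower after HGF (EXOSC2, −0.75 ± 0.22, adjusted p = 0.0459), and 5 were lower than control after both steps, including the debranching enzyme DBR1 (−0.71 ± 0.22, adjusted p = 0.0325). Without activin replicate 1, control replicate 1 or control replicate 2 the 5 lower with activin became 2, and EXOSC2 no longer passed after HGF when activin replicate 1 or 3 or activin + HGF replicate 1 or 2 was left out. The 5 lower than control became 3 without activin + HGF replicate 2 or control replicate 1. With library totals 5 of the TOP regulators were lower than control.

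Genes within 10 kb of a member gave values of their own. SLC3A2, which encodes the heavy chain of amino acid transporters, starts 149 bp from SNHG1 on the other strand. It had 9093 to 13109 counts in control, 34614 to 43739 with activin and 42928 to 52150 with activin + HGF, and its log2 fold change was 1.75 ± 0.19 (adjusted p = 0.000326) with activin, 0.45 ± 0.19 (adjusted p = 0.139) after HGF and 2.20 ± 0.20 (adjusted p = 5.94e-05) over both steps. Like SNHG1 it passed with activin and against control but not after HGF. SYNCRIP, 6699 bp beyond SNHG5, fell by 0.69 ± 0.18 with activin (adjusted p = 0.0265). Its log2 fold change was 0.02 ± 0.18 after HGF (adjusted p = 0.955) and −0.67 ± 0.18 over both steps (adjusted p = 0.0194), where SNHG5 was higher. TAF12 near SNHG12, MYO1G near SNHG15 and ST6GALNAC2 near SNHG16 did not pass in any comparison.

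Some members overlap a gene on the opposite strand, and whether the counting used strand is not given in the sources used here, so reads in the overlap cannot be assigned to one of the 2 genes. These partners were ZBTB37 and GAS5-AS1 for GAS5, MCMDC2 for SNHG6, PRSS12 for SNHG8, TRNAU1AP for SNHG12 and an uncharacterised locus for SNHG16. MCMDC2 had 12 to 57 counts and GAS5-AS1 had 4 to 58 counts per library, at most 0.836% and 0.276% of the counts of SNHG6 and GAS5. The other partners held more, counted over their whole genes and not only in the overlap. The counts of ZBTB37 came to 0.187% to 20.9% of those of GAS5, and those of the locus in SNHG16 to 1.91% to 12.4%. Those of PRSS12 came to 28.6% to 71.3% of those of SNHG8, and those of TRNAU1AP to 11.4% to 213% of those of SNHG12. How many of these counts lay in an overlap was not measured. TRNAU1AP ends at chr1:28578545 and the span of SNHG12 begins at chr1:28578538, so these genes share only a few bases. ZBTB37, PRSS12 and the locus in SNHG16 passed in none of the 3 comparisons (adjusted p = 0.0606 to 0.854). TRNAU1AP, with 315 to 720 counts in activin + HGF and 1098 to 1562 in control, fell by 1.24 ± 0.26 after HGF (adjusted p = 0.0153), the opposite direction to SNHG12.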

How the data were processed

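The authors deposited 1 table with raw read counts per gene and FPKM values, scaled by them to library size and gene length, for 33861 genes in 9 libraries. Libraries had been depleted of ribosomal RNA and sequenced as pairs. The submitters' processing notes name cutadapt 1.9, HISAT2 2.0.4 and StringTie 1.3.4d without roles. The genome build is not given in the sources used here, and 99.8% of the 32930 gene IDs shared with GENCODE 29 (GRCh38) overlapped their locus there. Counts on genes summed to 57453977 to 77016167 per library, and 3 libraries per group limit the precision.

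Counts were tested with edgeR 4.0.16 (filterByExpr, TMM, glmQLFit, glmQLFTest) in R 4.3.3, with a mean per group over all 9 libraries, no block, and Benjamini-Hochberg adjustment over 20988 genes. Standard errors are approximate, being the fold change over the square root of F. A two-sided exact permutation test over libraries was run for each member. Alternatives were edgeR's RLE scaling, library totals, no filter, a replicate block, fits with only the groups of a comparison, DESeq2 1.42.0, limma 3.58.1 on the authors' FPKM as log2(FPKM + 0.1) with or without a filter (FPKM of at least 0.5 in 3 libraries) or log2(FPKM + 1), a fold threshold, and each library left out. The non-overlap counts with library totals or FPKM were chosen after seeing the data. The fit was tested on simulated data.

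Named genes were all members, up to 3 passing genes per list, direction and comparison with the smallest p, snoRNA rows inside members, the nearest gene on each side within 10 kb and the 5 genes most like the members. A result that meets this rule is not reported here. LARP1, DBR1 and the genes that overlap a member were named after their values were seen. Members and gene lists were chosen with earlier results of these data known. Gene names came from the table, and sequences from GENCODE 29 and RefSeq (GRCh38.p14). Python 3.11.15, numpy 2.4.6, pandas 2.3.3, scipy 1.17.1 and matplotlib 3.10.9 were used. No replicate pair agreed within sampling noise (chi-square 59.2 to 266 for each degree of freedom), and all libraries were kept.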

Additional observations from a re-analysis of the deposited data

How the results depend on the processing

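The number of members passing with activin was 2 when the log2 fold change also had to reach 1 in either direction (4 without). Under the other alternatives it was 3 to 5, 4 to 6 after HGF and 5 to 6 against control. The members without overlap were 7, 5 and 6 with library totals or FPKM in place of 5, 6 and 6. The share of all tested genes without overlap was computed only for TMM-scaled CPM (42.2%, 32.7% and 53.8%). The counts with library totals or FPKM are therefore not a result about the members. Directions that turned were of values that had not passed. After HGF, SNHG1 was −0.0745 with library totals, −0.11 with limma on log2(FPKM + 0.1) with and without the filter and −0.10 on log2(FPKM + 1). SNHG15 was 0.03 with the replicate block and −0.36 to 0.28 with a library left out. Against control, SNHG16 was −0.0556 with library totals, −0.0881 with limma on log2(FPKM + 0.1) with and without the filter and −0.084 on log2(FPKM + 1). Scaling by library totals moved the median log2 fold change of all genes to −0.38 after HGF and −0.30 against control, from −0.04 and −0.03, and the cause of the changes in the members was not tested. With the replicate block 4, 6 and 5 members passed, as without it, and no member's call changed. After group means were subtracted, same-numbered libraries correlated at −0.0606 to 0.0882 over 9 pairs, so the numbers were not taken to pair the libraries.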
